A study of Mus musculus with 14 samples.

Results

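The 41 genes described here encode histone lysine methyltransferases, histone lysine demethylases and their close relatives, chosen as every gene of the deposited tables whose symbol starts with Kdm, Kmt, Setd, Ezh, Ehmt or Suv39. All 41 were listed in both tables, which held 18194 genes for GV oocytes and 16509 for ovulated oocytes, with 16196 genes in both. Of the 41, 17 are Kdm genes and 24 belong to the methyltransferase and SET-domain families. RNA was sequenced from mouse oocytes that carried floxed Mff alleles, with or without an oocyte Cre. Mff encodes the mitochondrial outer-membrane receptor that recruits the fission GTPase DRP1.

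The ovulated CKO group had 3 libraries of oocytes whose genotype was Mff fl/fl; Gdf9-Cre, and the ovulated WT group had 3 libraries of Mff fl/fl oocytes without Cre. The GV CKO and GV WT groups had the same genotypes and 4 libraries each. All 4 groups therefore carried the floxed alleles, and Gdf9-Cre is active in oocytes from early follicles on. GV oocytes still have an intact germinal vesicle in the first meiotic prophase. The labels used here state neither the age of the mice nor how many oocytes and animals made up a library. P-values therefore reflect only how much these libraries vary, which may be technical.

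Histone lysine methylation is written by SET-domain methyltransferases and removed by demethylases of the LSD1 and Jumonji families. Methylation of H3K4 and H3K36 is mostly found at active genes, methylation of H3K9 and H3K27 mostly at silent chromatin, and methylation of H4K20 in chromosome compaction and repair. In growing mouse oocytes MLL2 (Kmt2b), SETD2 and LSD2 (Kdm1b) shape the H3K4 and H3K36 patterns on which oocyte DNA methylation depends. Fully grown oocytes make little new RNA, and stored messages are translated or degraded as meiosis resumes. In that phase CPEB1, which binds U-rich elements near the 3′ end, controls the poly(A) tail of many stored messages.

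The sequences below are 30-base stretches from the last 100 bases of the 3′ untranslated region of 7 of these genes, printed on the transcript strand in DNA letters. They are shown because the stage comparison separates Suv39h1 from its paralog Suv39h2, and because the other 5 genes carry the results on stage or genotype. Capitals mark a polyadenylation signal (AATAAA or ATTAAA) or a CPEB1-type element (TTTTAT or TTTTAAT).
Suv39h1, chromosome X: ggagtgcacaccAATAAActgtgttgttga
Suv39h2, chromosome 2: ctttttTTTTAATaacagAATAAAcaccat
Ezh2, chromosome 6: tatttaataaccAATAAAcatactggcata
Kdm1a, chromosome 4: gagAATAAAactttaaaataaTTTTATatg
Setd1a, chromosome 7: cacatTTTTATaattgtgATTAAActttat
Kdm6a, chromosome X: tttaaagggagTTTTAATacaggcttttca
Kmt2a, chromosome 9: ctatgcacttttTTTTATttaagtgatagt

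These stretches come from GENCODE M21 on GRCm38, the assembly that mm10 names, taking for each gene the protein-coding transcript with the longest coding sequence. A CPEB1-type element was searched on the transcript strand in the last 100 bases, and 39 of the 41 genes had a 3′ untranslated region that long. Of the 39, 14 (35.9%) held an element, against 19.0% of 14261 genes in both tables. An element and a polyadenylation signal can share letters. Among the genes that rose in ovulated oocytes of both genotypes, 7 of 21 (33.3%) held one, and among those that rose in CKO 9 of 23 (39.1%) did. Of the genes not called between stages, 4 of 11 (36.4%) in CKO and 5 of 10 (50%) in WT held one. Of those that fell, 0 of 2 in CKO and 1 of 5 in WT did. Suv39h1 held none in this window and Suv39h2 held 1. A match describes letters only, and poly(A) tails were not measured.

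Library totals lay between 26575593 and 28847424 counts. Mff itself had 38.4, 53.3 and 66.7 CPM in ovulated CKO libraries, against 371, 355 and 844 CPM in ovulated WT libraries. In GV oocytes it had 26.97, 31.1, 40.8 and 37.3 CPM in CKO libraries, against 822, 402, 566 and 831 CPM in WT libraries. The genotypes did not overlap in either stage, with log2 fold changes of -3.31 (SE 0.36) in ovulated and -4.27 (SE 0.31) in GV oocytes and edgeR adjusted p of 0.000155 and 0.000103. All listed markers of the oocyte were detected in every library. Their levels differed widely, with Gdf9 and Bmp15 among the most abundant and Figla and Ddx4 the least abundant. Summed markers of granulosa and cumulus cells reached 79.99 to 112 CPM in ovulated and 42.2 to 85.6 CPM in GV libraries, of which most was Cyp19a1. Kitl and Nr5a2 were also detected in every library, whereas the cumulus gene Ptx3 was at 0 in 5 of 6 ovulated and 7 of 8 GV libraries. Theca and stroma markers summed to 2.58 to 7.12 CPM in ovulated and 2.20 to 12.3 CPM in GV libraries. Blood and immune markers summed to 52.0 to 133 CPM in ovulated and 19.4 to 42.2 CPM in GV libraries, mostly Pecam1. Cd68 was also detected in every library, whereas Ptprc (CD45) was at 0 in 7 of 8 GV libraries. The part of these markers in the stage results was not tested. In bulk libraries, fewer cells of a type and less RNA per cell cannot be told apart.

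GV CKO replicates 1 and 2 and GV WT replicate 2 stood apart from the other GV libraries on the leading principal component (45.7% of variance). In them the top 100 genes made up 35.2%, 42.4% and 38.1% of counts, whereas the other 5 GV libraries had 48.2% to 51.1%. The 41 genes together made up 0.277% of counts in GV CKO replicate 1 and 0.219% in GV WT replicate 2, whereas the other 6 GV libraries had 0.103% to 0.157%. Of the 36 genes tested in GV oocytes, 22 were highest in replicate 1 among the CKO libraries, and 22 were highest in replicate 2 among the WT libraries. Results on GV oocytes are therefore given with and without these 3 libraries. In ovulated oocytes, CKO replicate 2 and WT replicate 3 lay at the ends of the leading component of that stage (55.1% of variance). That component separated the genotypes, with WT libraries at 31.1, 36.8 and 50.2 and CKO libraries at -15.4, -65.0 and -37.7.

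Levels of different genes were compared as deposited FPKM, which is scaled to transcript length, and each stage was ranked alone because the tables were normalised separately. In ovulated oocytes the highest gene was Ezh2 (Entrez 14056, chr6:47530274-47595270 on GRCm38), the catalytic subunit of the Polycomb complex PRC2, with a mean of 274 ± 23.9 FPKM in CKO and 255 ± 58.3 FPKM in WT libraries (SD, n = 3 each). It was followed by Kdm1b, the H3K4 demethylase of growing oocytes, at a mean of 79.8 FPKM over all 6 libraries, and by the H3K27 demethylases Kdm6a and Kdm6b at 64.0 and 51.4 FPKM. Kdm1a (LSD1) averaged 46.7 FPKM and Kdm2b, an H3K36 demethylase that also recruits a variant Polycomb complex to CpG islands, 44.4 FPKM. Ezh2 exceeded Kdm1b in all 6 libraries, whereas the ranges of Kdm6a (51.2 to 78.3 FPKM) and Kdm6b (43.1 to 61.8 FPKM) overlapped.

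In GV oocytes the order was a different one. The highest gene was Setd4 (Entrez 224440, chr16:93583457-93604791), a SET-domain protein studied in quiescent progenitor cells, at 239 ± 38.9 FPKM in CKO and 191 ± 30.7 FPKM in WT libraries (SD, n = 4 each). Suv39h1 (Entrez 20937, chrX:8061171-8074760 on GRCm38), which trimethylates H3K9 at pericentric heterochromatin, averaged 78.8 FPKM and Ezh2 77.4 FPKM over all 8 libraries. Kdm2b, Kdm1b and the H3K9 methyltransferase Setdb1, which silences endogenous retroviruses, averaged 32.3, 24.4 and 17.9 FPKM. Setd4 exceeded every other gene of the 41 in all 8 libraries. The nearest approach was in GV CKO replicate 1, with 265 FPKM of Setd4 and 173 FPKM of Ezh2.

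Enzymes with known roles in oocyte chromatin covered a wide range of levels. Setd2, the main writer of H3K36 trimethylation, averaged 22.3 FPKM in ovulated and 4.77 FPKM in GV oocytes, and Kmt2b 15.2 and 2.52 FPKM. Kmt2d, an enhancer H3K4 methyltransferase, averaged 8.40 FPKM in ovulated and 1.96 FPKM in GV oocytes. Setd1b, the H3K4 methyltransferase whose loss in mouse oocytes impairs their gene expression, averaged 0.842 and 0.325 FPKM, and Kdm5b, which removes H3K4 trimethylation, 0.743 and 0.912 FPKM. Ehmt2 (G9a), the H3K9 dimethyltransferase, was the least abundant of these at 0.235 FPKM in ovulated and 0.0975 FPKM in GV oocytes. Its partner Ehmt1 (GLP) was at least 15.1 times as high as Ehmt2 in every library on the FPKM scale. Setd7, Kdm4c and Kmt5c had 0 to 13 counts in any library and were never tested.

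**Figure D1:**
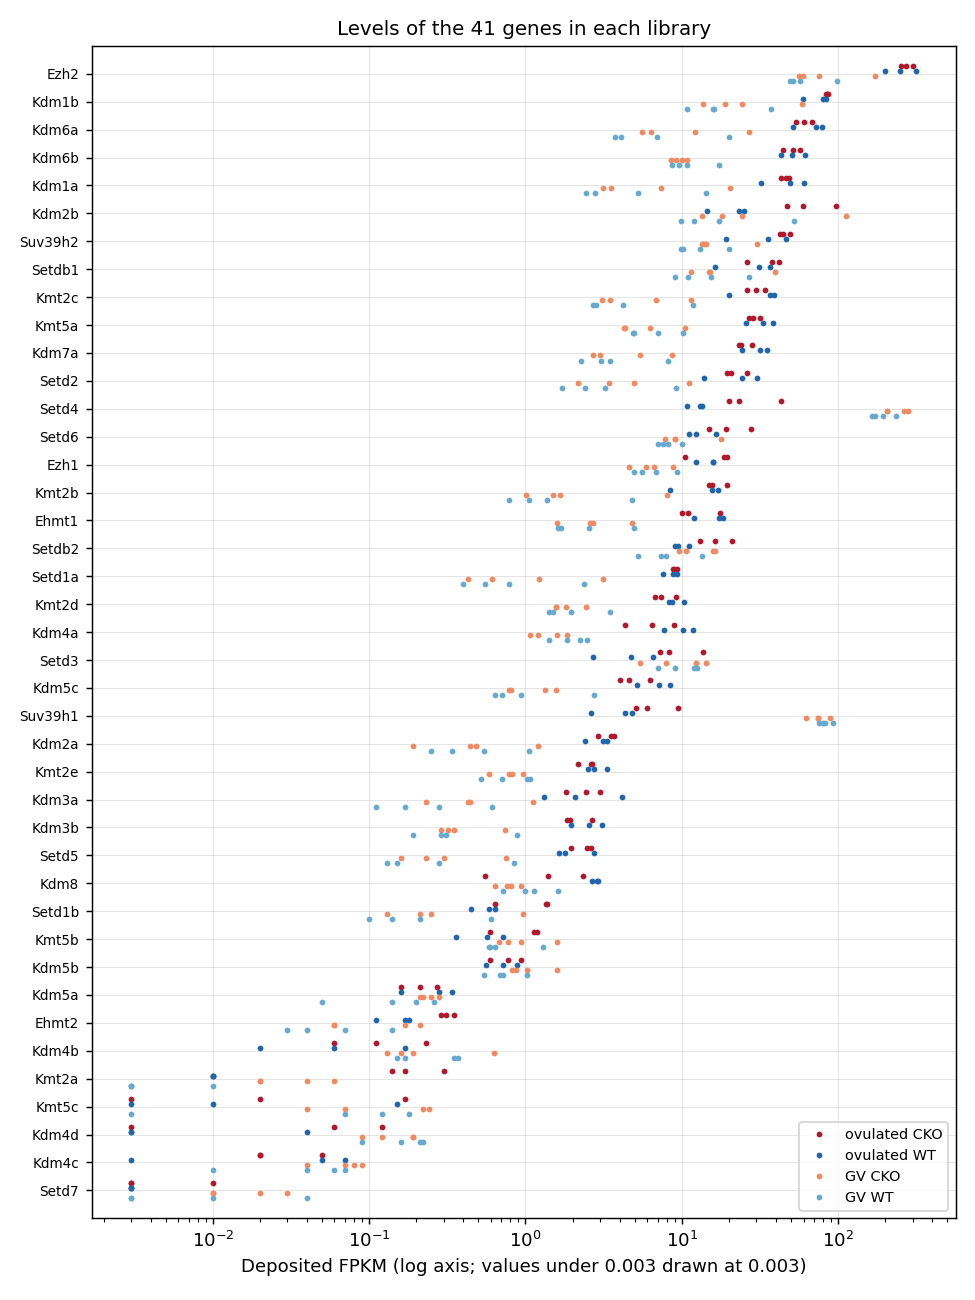
Deposited FPKM (log axis) of each of the 41 genes, 1 point per library, with genes ordered from top to bottom by their mean in ovulated oocytes. Dark points are ovulated and light points GV libraries, red CKO and blue WT; the 2 stages come from separately normalised tables. Ezh2 is at the top, and Setd4 and Suv39h1 are the abundant genes whose GV points lie far to the right of their ovulated points.

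From the GV stage to ovulation, most of the tested genes took a larger share of the library. In a joint edgeR fit of the 14 libraries, 24 of 38 tested genes were higher and 3 lower in ovulated than in GV oocytes of CKO mice, where 54.4% of all 13199 genes were called, 23.2% higher and 31.2% lower. In WT mice 22 were higher and 6 lower, where 66.4% of all genes were called, 30.3% higher and 36.2% lower. The median log2 fold change of the 38 genes was 1.19 in CKO and 1.36 in WT, against -0.19 and -0.17 over all genes. Called in both genotypes were 22 genes that rose and 2 that fell. Groups of libraries did not overlap for 24 genes above and 5 below in CKO (21.8% and 30.6% of all genes, 52.4% in all) and for 22 above and 6 below in WT (31.4% and 37.3% of all genes, 68.7% in all). Of 12 oocyte markers, 0 were higher and 7 lower in ovulated oocytes of CKO mice, and 0 were higher and 8 lower in WT. The stages come from separate tables, so stage and table cannot be told apart, and CPM is a share of a library, not a number of molecules per oocyte.

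These genes have long transcripts, and transcript length moved with the stage change. Their median length implied by the files was 4213 bases (40 genes), against 2242.5 bases over 16940 genes. All genes were cut into 4 equal groups by length. The longest group held 22 of the 38, and 42.3% of all its genes were called higher in CKO and 50.4% in WT, whereas the shortest group had 9.67% and 15.3%. Of the 22 genes in the longest group, 18 were called higher in CKO and 16 in WT. Their median log2 fold changes were 1.67 in CKO and 1.87 in WT, against 0.64 and 0.88 for all genes of that length group. With the length trend removed, an alternative chosen with earlier results known, the median of the 38 genes was 0.97 in CKO and 1.14 in WT, and that of all genes 0.09 and 0.12. The part of length in the stage change was not tested.

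**Figure D2:**
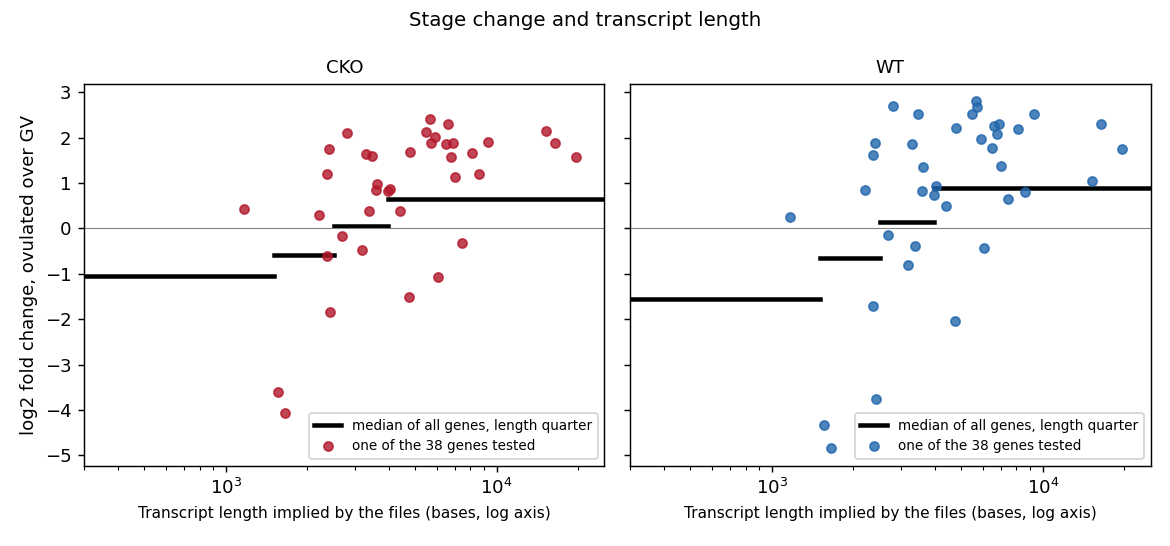
Log2 fold change of ovulated over GV oocytes against transcript length implied by the files (log axis), in CKO on the left and WT on the right. Points are the 38 tested genes and black lines the median of all genes in each of 4 length groups; the lines climb with length, most points at the long end lie above their line, and Setd4 and Suv39h1 are the lowest points.

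All 7 tested H3K4 methyltransferases and relatives were called higher in ovulated oocytes of CKO mice and 5 of 7 in WT mice, and the other 2, Kmt2a and Setd1b, had positive fold changes in WT. Setd1a, a catalytic subunit of COMPASS, had 40.0, 34.7 and 43.2 CPM in ovulated CKO libraries, against 14.2, 7.77, 3.25 and 4.35 CPM in GV CKO libraries. It had 45.0, 44.0 and 41.1 CPM in ovulated WT libraries, against 3.24, 11.4, 5.51 and 4.43 CPM in GV WT libraries. Every ovulated library was above every GV library, and the 3 GV libraries that stood apart were the highest of their stage. The log2 fold changes were 2.40 (SE 0.44, adjusted p = 0.000202) in CKO and 2.81 (SE 0.44, adjusted p = 2.70e-05) in WT, the largest rise among the 38 genes in both genotypes.

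Kmt2b had 68.5, 72.9 and 66.4 CPM in ovulated CKO libraries, against 35.1, 10.4, 7.38 and 10.3 CPM in GV CKO libraries. The groups did not overlap, and the change was 2.13 on the log2 scale in CKO (SE 0.47, adjusted p = 0.00107) and 2.53 in WT (SE 0.48, adjusted p = 0.000165). Kmt2a (MLL1) rose by 2.14 in CKO (SE 0.63, adjusted p = 0.00849), from low counts in both stages, and its WT change of 1.05 (adjusted p = 0.331) did not pass. It passed the filter on low counts of the joint fit only with its ovulated CKO libraries. The log2 fold changes of Kmt2c, a COMPASS-type methyltransferase of enhancers, were 1.87 in CKO and 2.29 in WT. Those of Kmt2d were 1.57 and 1.76, and those of Kmt2e, a relative with little known methyltransferase activity, 1.12 and 1.37. Setd1b passed in CKO at 1.19 (adjusted p = 0.0405) but overlapped between stages, and it lost the call in 5 of 14 fits that each left out 1 library, with adjusted p of 0.0839 to 0.154. Those were the fits without GV CKO replicates 2, 3 or 4 or without ovulated CKO replicates 2 or 3.

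Among H3K9 methyltransferases, the paralogs Suv39h1 and Suv39h2 moved in opposite directions. Suv39h1 had 7.99, 10.7 and 7.12 CPM in ovulated CKO libraries, against 83.2, 137, 198 and 155 CPM in GV CKO libraries. It had 6.06, 3.84 and 7.55 CPM in ovulated WT libraries, against 197, 129, 153 and 188 CPM in GV WT libraries. No ovulated library came near a GV library. The log2 fold changes were -4.06 (SE 0.35, adjusted p = 1.97e-07) in CKO and -4.84 (SE 0.36, adjusted p = 1.76e-08) in WT, a 16.7-fold and a 28.7-fold difference.

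Suv39h2 (Entrez 64707, chr2:3455815-3474986 on GRCm38), which trimethylates H3K9 in pericentric heterochromatin too, had 137, 137 and 146 CPM in ovulated CKO libraries, against 97.4, 64.8, 74.6 and 68.2 CPM in GV CKO libraries. It had 123, 167 and 74.4 CPM in ovulated WT libraries, against 76.0, 69.0, 50.4 and 56.8 CPM in GV WT libraries. The stages were separate in CKO and overlapped in WT, where 1 ovulated library lay within the GV range. The log2 fold changes were 0.88 (SE 0.26, adjusted p = 0.00865) in CKO and 0.94 (SE 0.26, adjusted p = 0.00398) in WT; without ovulated WT replicate 2 the WT change was 0.64 and no longer called (adjusted p = 0.0530). The FPKM of Suv39h1 was 0.115 to 0.192 times that of Suv39h2 in ovulated CKO libraries, against 2.07 to 6.44 times in GV CKO libraries. In WT it was 0.0561 to 0.249 times in ovulated libraries, against 4.60 to 8.08 times in GV libraries. The more abundant of the 2 paralogs was thus Suv39h2 in all 6 ovulated libraries and Suv39h1 in all 8 GV libraries.

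The other H3K9 methyltransferases changed less, apart from Ehmt1. Ehmt1 rose by 1.69 on the log2 scale in CKO and 2.21 in WT. Ehmt2, Setdb1 and Setdb2 were not called in either genotype, with log2 fold changes between -0.16 and 0.84 in CKO and between -0.14 and 0.82 in WT.

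**Figure D3:**
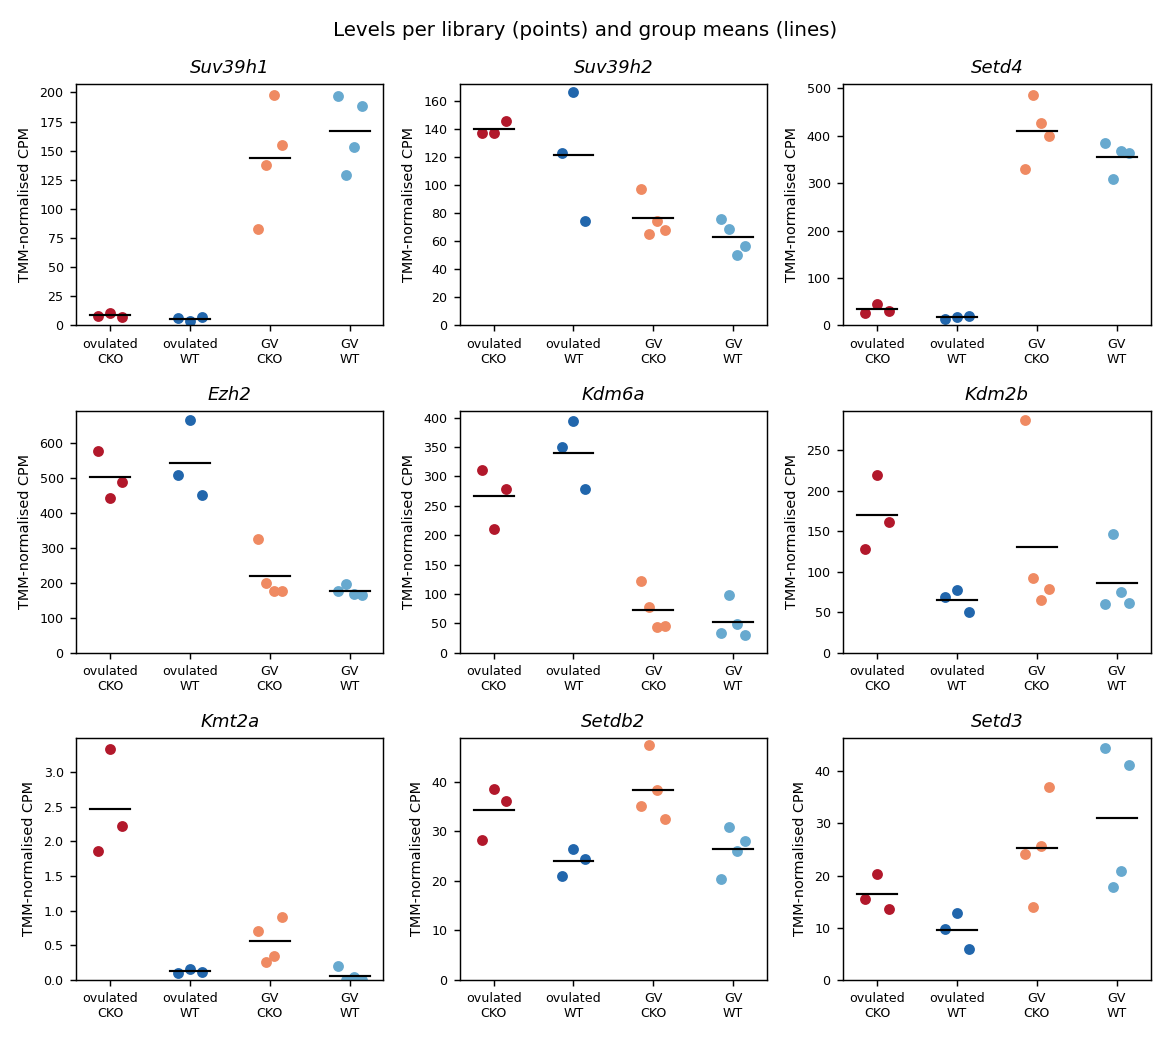
TMM-normalised CPM on the joint scale of 9 genes, 1 point per library with the group mean as a line, for ovulated CKO, ovulated WT, GV CKO and GV WT oocytes from left to right. Suv39h1 and Setd4 are low in all 6 ovulated libraries, Ezh2 and Kdm6a are high there, and Kmt2a is high in the 3 ovulated CKO libraries.

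Both H3K27 methyltransferases rose. Ezh2 had 576, 443 and 489 CPM in ovulated CKO libraries, against 326, 200, 177 and 176 CPM in GV CKO libraries, and 508, 666 and 451 CPM in ovulated WT libraries, against 176, 197, 166 and 165 CPM in GV WT libraries. The stages did not overlap in either genotype, and the log2 fold changes were 1.19 in CKO and 1.62 in WT. Ezh1, the PRC2 subunit that prevails in resting cells, rose by 0.82 in CKO and 0.74 in WT. Ezh2 stayed the more abundant, at 14.5 to 23.9 times the FPKM of Ezh1 in ovulated CKO and 15.7 to 20.1 times in ovulated WT libraries, against 10.1 to 19.7 times in GV CKO and 8.39 to 10.5 times in GV WT libraries.

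Both genes grouped here under H3K36 for description rose as well. Setd5, a SET-domain protein whose own catalytic activity is disputed, changed by 2.31 in CKO (SE 0.43, adjusted p = 0.000228) and 2.25 in WT. Its levels were 10.4 to 13.8 CPM in ovulated CKO libraries, against 1.43 to 3.92 CPM in GV CKO libraries. Setd2 changed by 1.65 in CKO and 2.18 in WT. For H4K20, the monomethyltransferase Kmt5a rose by 1.75 in CKO and 1.88 in WT. The dimethyltransferase Kmt5b was called lower only in WT, at -0.80 (SE 0.34, adjusted p = 0.0440), against -0.47 in CKO (adjusted p = 0.242). It lost the WT call in 8 of 14 fits that left out 1 library, namely each of the 4 GV WT libraries, GV CKO replicates 3 and 4, and ovulated WT replicates 1 and 2, with adjusted p of 0.0519 to 0.177. It was also lost without the 3 GV libraries that stood apart (adjusted p = 0.103).

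None of the 3 tested genes grouped as other SET-domain proteins was called higher in either genotype. Setd4 had 25.5, 46.2 and 29.999 CPM in ovulated CKO libraries, against 330, 486, 427 and 400 CPM in GV CKO libraries. It had 14.5, 18.8 and 19.3 CPM in ovulated WT libraries, against 384, 308, 367 and 362 CPM in GV WT libraries. The stages were far apart in both genotypes, with log2 fold changes of -3.60 (SE 0.28, adjusted p = 1.04e-07) in CKO and -4.34 (SE 0.29, adjusted p = 8.84e-09) in WT. Setd3, the actin histidine methyltransferase, fell by 1.70 on the log2 scale in WT (SE 0.39, adjusted p = 0.000956), to a mean of 9.51 CPM in ovulated against 31.1 CPM in GV oocytes. Its change in CKO was -0.61 (adjusted p = 0.177). Setd6, which methylates the NF-kappaB subunit RelA, was not called in either genotype.

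Of 5 tested demethylases of H3K4, 3 rose in both genotypes. Kdm1a had 110, 89.0 and 98.0 CPM in ovulated CKO libraries, against 45.0, 23.1, 11.7 and 12.6 CPM in GV CKO libraries. It had 118, 150 and 85.6 CPM in ovulated WT libraries, against 9.96, 33.8, 18.02 and 11.1 CPM in GV WT libraries. All ovulated libraries were above all GV libraries, and the log2 fold changes were 2.09 (SE 0.44, adjusted p = 0.000719) in CKO and 2.69 (SE 0.45, adjusted p = 4.88e-05) in WT. Kdm1b rose by 0.97 in CKO and 1.35 in WT, and the X-linked Kdm5c by 1.57 and 2.08. Kdm5b was called lower in CKO at -1.07 (SE 0.33, adjusted p = 0.0118) and was -0.43 in WT (adjusted p = 0.256); without ovulated CKO replicate 3 the CKO call was lost (adjusted p = 0.0503). Kdm5a, a relative of Kdm5b, was not called in either genotype.

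Demethylases of H3K9 gave 4 genes that rose in both genotypes. Kdm3a and Kdm3b, which remove mono- and dimethylation, rose by 1.60 and 1.88 in CKO and by 2.52 (SE 0.43, adjusted p = 5.50e-05) and 2.29 in WT. Kdm4a, which acts on H3K9 and H3K36, rose by 1.65 in CKO and 1.87 in WT. Kdm7a, which acts on dimethylated H3K9 and H3K27, rose by 1.91 in CKO and 2.52 (SE 0.29, adjusted p = 1.13e-06) in WT. The related Kdm4b and Kdm4d were called lower in WT from low levels. Kdm4b averaged 0.358 CPM in ovulated WT oocytes, against 1.51 CPM in GV WT oocytes, a difference of -2.04 on the log2 scale (SE 0.68, adjusted p = 0.0135). That call was lost without GV WT replicate 4 (adjusted p = 0.0510) or ovulated WT replicate 3 (adjusted p = 0.0586). Kdm4d had 3 counts in all over the ovulated WT libraries, against 45 over the GV WT libraries, a ratio of shares of 0.0908 (95% exact interval 0.0180 to 0.283, counting error only; edgeR adjusted p = 0.00423).

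Both H3K27 demethylases rose. Kdm6a (UTX), which also belongs to the KMT2C and KMT2D complexes, had 312, 210 and 279 CPM in ovulated CKO libraries, against 122, 77.9, 43.0 and 45.5 CPM in GV CKO libraries. It had 351, 394 and 278 CPM in ovulated WT libraries, against 34.1, 98.0, 49.1 and 30.5 CPM in GV WT libraries. The stages did not overlap, and the log2 fold changes were 1.89 in CKO and 2.69 (SE 0.40, adjusted p = 1.57e-05) in WT. Kdm6b (JMJD3) rose by 1.86 in CKO and 1.77 in WT. Of the H3K36 demethylases, Kdm2a rose by 2.01 in CKO (SE 0.36, adjusted p = 0.000190) and 1.97 in WT, whereas Kdm2b (0.38 and -0.39) and Kdm8 (0.30 and 0.86) were not called.

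**Figure D4:**
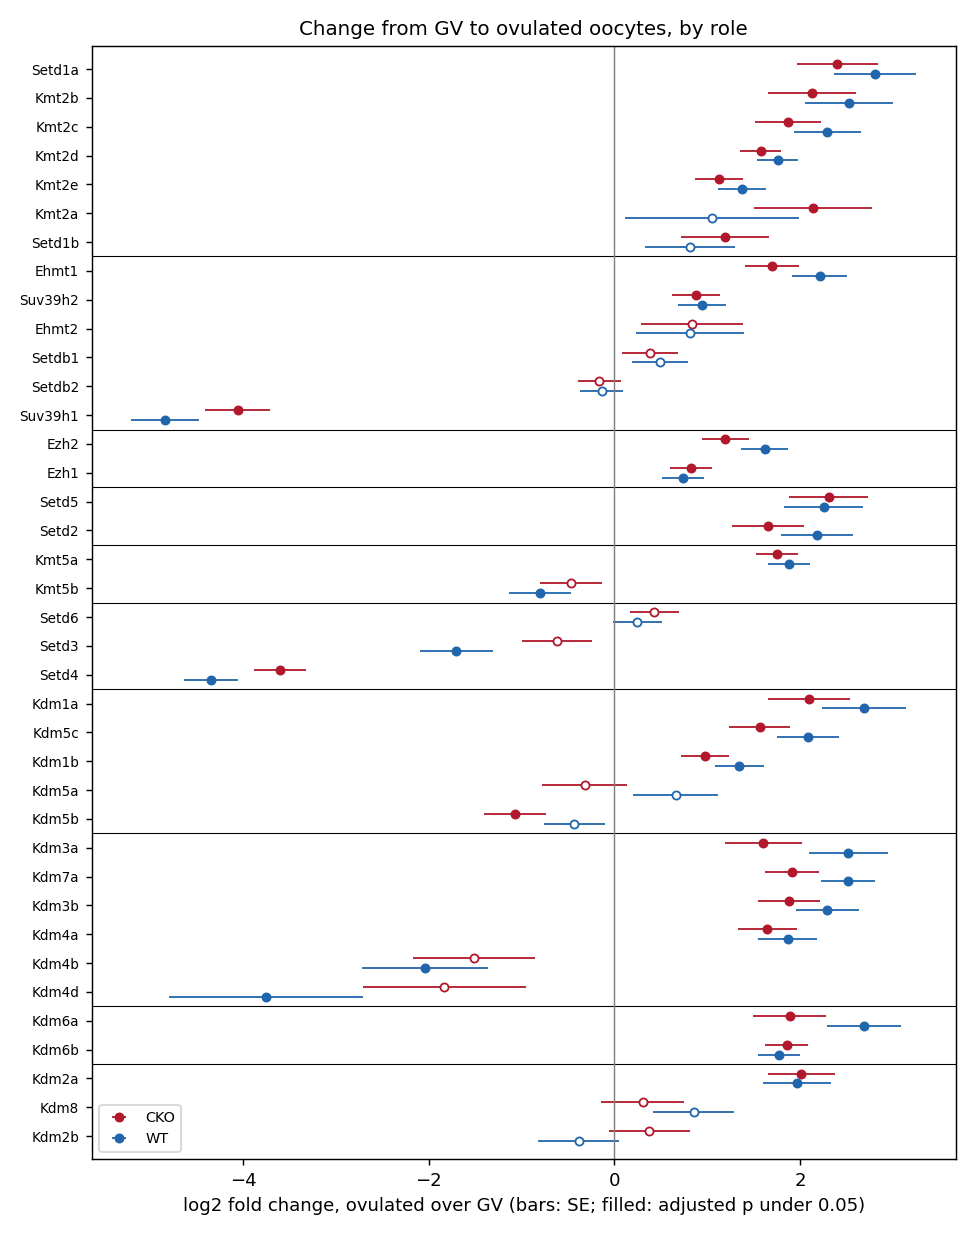
Log2 fold change of ovulated over GV oocytes with its SE for the 38 tested genes, CKO in red above WT in blue, filled where adjusted p was under 0.05. Horizontal lines divide the roles, from H3K4, H3K9, H3K27, H3K36 and H4K20 methyltransferases and other SET-domain proteins at the top to H3K4, H3K9, H3K27 and H3K36 demethylases at the bottom. Suv39h1 and Setd4 lie farthest to the left in both genotypes.

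Without the 3 GV libraries that stood apart, 25 genes were higher and 4 lower in CKO and 24 higher and 5 lower in WT. Genes that were higher in those libraries had larger changes in their absence, for example Setd1a at 3.36 in CKO and 3.29 in WT and Kdm1a at 3.02 and 3.16. Suv39h1 was then at -4.37 in CKO and -4.96 in WT, and Setd4 at -3.62 and -4.42.

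Partners of these enzymes were compared between stages too. Of all 13199 genes tested, 54.4% were called in CKO, 23.2% higher and 31.2% lower. In WT 66.4% were called, 30.3% higher and 36.2% lower. Of 9 tested PRC2 partners, 6 were higher and 0 lower in ovulated oocytes of CKO mice, and 8 were higher and 0 lower in WT mice, with medians of 1.03 and 1.57. The PRC2 accessory subunits Phf19 (2.07 in CKO, 2.27 in WT) and Jarid2 (1.98 and 2.43) were among them. Of 15 tested COMPASS and MLL complex partners, 9 were higher and 2 lower in CKO and 8 higher and 4 lower in WT. Psip1, which tethers MLL complexes to chromatin, was at 1.98 and 2.71. The lowest values among these partners were -1.64 in CKO and -2.95 in WT. Of 9 partners and readers of H3K9 methylation, 4 were higher and 1 lower in CKO and 5 higher and 1 lower in WT, among them Trim28, the corepressor that recruits SETDB1, at 1.97 and 2.62. Of 10 CoREST and LSD1 partners, 4 were higher and 3 lower in CKO and 4 higher and 4 lower in WT. The scaffold Rcor1 was at 2.20 and 2.55, while the lowest values of this list were -2.01 in CKO and -5.51 in WT.

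Histone lysine methyltransferases with other symbols split evenly in CKO, with 4 higher and 4 lower of 14, and gave 6 higher and 4 lower in WT. Setmar and Smyd5 fell by 2.98 and 3.35 on the log2 scale in CKO and by 3.30 and 4.33 in WT. Demethylases with other symbols gave 2 higher and 1 lower of 6 in CKO and 3 higher and 2 lower in WT. Among them the ribosomal oxygenase Riox2 fell by 1.79 in CKO and 1.68 in WT, and Phf2, an H3K9 demethylase, rose by 1.87 and 2.05. DNA methylation genes gave 3 higher and 1 lower of 8 in CKO and 4 higher and 1 lower in WT. The oxidase Tet3 was at 1.93 and 2.23, and the DNMT3A cofactor Dnmt3l at -1.10 and -2.50. These counts stand beside 54.4% of all genes called in CKO and 66.4% in WT.

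In ovulated oocytes, 2 of the 37 tested genes were called higher and 0 lower in CKO than in WT, where 7.84% of all 12010 genes were called, 6.44% higher and 1.40% lower. The 2 were Kmt2a and Kdm2b. Without adjustment 7 of 37 had a p under 0.05, as did 23.3% of all genes, and DESeq2 called 0 lower as well. The median log2 fold change of the 37 genes was -0.08, against 0.00 over all genes, and its sign depended on the scale. In the fits on deposited FPKM it was 0.06 to 0.11, where the median of all genes was 0.05 to 0.19. CKO libraries lay wholly above WT libraries for 6 genes and wholly below for 4, or 27.03% of the 37, where 28.5% of all genes did not overlap, 15.8% above and 12.7% below.

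Kmt2a (Entrez 214162, chr9:44803355-44881352 on GRCm38), the H3K4 methyltransferase MLL1, had 65, 131 and 74 counts in ovulated CKO libraries, against 3, 5 and 3 counts in ovulated WT libraries. These were 2.29, 4.09 and 2.72 CPM in CKO, against 0.112, 0.188 and 0.131 CPM in WT. Every CKO library was above every WT library, with a difference of 4.35 on the log2 scale (SE 0.68, edgeR adjusted p = 0.0017) that rests on 11 counts in all in WT. Kmt2a passed the filter on low counts only through its CKO libraries, the group in which it was high. On deposited FPKM it was 0.14 to 0.30 in CKO libraries and 0.01 in each WT library, and limma did not call it on that scale (adjusted p = 0.129 to 0.249). The pseudocounts of 1 and 0.1 added there are large beside these values, and the log2 differences were 0.25 and 1.43. Those fits therefore say little about this gene. In GV oocytes Kmt2a had 25, 6, 7 and 20 counts in CKO libraries, against 4, 0, 1 and 0 counts in WT libraries, and fell under the filter on low counts, so that it was not tested there. The genotypes did not overlap there either, but the GV WT libraries held 5 counts in all. That order gives no separate support to the call.

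Kdm2b (Entrez 30841, chr5:122870664-122989270 on GRCm38) had 158, 270 and 198 CPM in ovulated CKO libraries, against 83.2, 90.1 and 61.6 CPM in ovulated WT libraries. The groups did not overlap, and CKO exceeded WT by 1.42 on the log2 scale (SE 0.27, adjusted p = 0.00507). Without ovulated WT replicate 3 and CKO replicate 2, an alternative added after the data were seen, it was 1.04 and just missed the call (adjusted p = 0.0502). Those libraries held the lowest WT and the highest CKO level of Kdm2b, so a smaller difference without them was built into that choice. In GV oocytes Kdm2b had 257, 75.2, 56.3 and 68.8 CPM in CKO libraries, against 52.8, 123, 65.0 and 54.1 CPM in WT libraries, and the groups overlapped. On the FPKM scale Kdm2b was 13.4 to 26.1 times its paralog Kdm2a in ovulated CKO libraries, against 6.05 to 7.99 times in ovulated WT libraries.

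Setd4, Setd3, Kdm8 and Kdm4a were next in order of p and did not pass. Setd4 had 31.3, 56.7 and 36.8 CPM in ovulated CKO libraries, against 17.5, 21.9 and 23.7 CPM in WT libraries, without overlap (0.98, SE 0.30, adjusted p = 0.0579). It passed with DESeq2 (adjusted p = 0.0215), without a filter on low counts (adjusted p = 0.0355) and without ovulated CKO replicate 1 (adjusted p = 0.0240). Setd4 did not pass with RLE scaling (edgeR adjusted p = 0.0628) or on FPKM (limma adjusted p = 0.0637 to 0.172). Without ovulated WT replicate 3 and CKO replicate 2 it was 0.79 (edgeR adjusted p = 0.210). Of 6 fits that each left out 1 library, 1 passed, and the lowest change was 0.70 (edgeR adjusted p up to 0.267). Setd3 had 19.1, 24.9 and 16.6 CPM in CKO, against 11.7, 15.02 and 7.30 CPM in WT (0.83, adjusted p = 0.157). The protein hydroxylase Kdm8 had 5.14, 2.59 and 1.21 CPM in CKO, against 6.63, 6.10 and 7.48 CPM in WT (-1.17, adjusted p = 0.159). Kdm4a had 28.6, 18.6 and 14.9 CPM in CKO, against 38.8, 26.04 and 37.997 CPM in WT (-0.73, adjusted p = 0.177). The groups were separate for Setd3 and Kdm8 and overlapped for Kdm4a. Without ovulated CKO replicate 1, Kdm4a (adjusted p = 0.0472) and Kdm8 (adjusted p = 0.0277) were called lower. That was 1 of 6 fits that each left out 1 library, and the others called neither gene. The weakest changes were -0.54 for Kdm4a and -0.80 for Kdm8, with edgeR adjusted p up to 0.446 and 0.386.

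Of the partner lists, 1 of 15 tested COMPASS and MLL complex partners and 1 of 8 DNA methylation genes were called between genotypes in ovulated oocytes. The other lists gave 0, where 7.84% of all genes were called. The MLL subunit menin (Men1) was higher in CKO, at a mean of 15.5 CPM against 3.34 CPM in WT (2.22, SE 0.49, adjusted p = 0.0118). Dnmt3l was higher too, at 89.6 CPM against 41.9 CPM (1.10, SE 0.29, adjusted p = 0.0327). Oocyte markers differed in both directions between genotypes in ovulated oocytes. Of 12, 4 were called higher in CKO, among them Zp2 by 2.33 and Figla by 4.06, and 0 lower. Of all genes, 6.44% were called higher and 1.40% lower. Fold changes were positive for 8 of the 12 markers and negative for 4, down to -0.79 on the log2 scale. Summed oocyte markers were 14364 to 19354 CPM in CKO and 15013 to 19451 CPM in WT libraries. In the shortest length group 16.2% of all genes were called higher in ovulated CKO oocytes, against 1.40% in the longest, which held 20 of the 37 genes. The part of these in the genotype results was not tested.

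In GV oocytes no gene of the 36 tested was called between CKO and WT by edgeR or DESeq2, where 0.0163% of all 12298 genes were called by edgeR, 0.00813% higher and 0.00813% lower. Without adjustment 1 of 36 had a p under 0.05, as did 6.66% of all genes, and 1 of 36 did not overlap, where 4.59% of all genes did not, 2.63% above and 1.95% below. That gene was Setdb2, an H3K9 methyltransferase related to Setdb1, with 31.5, 38.7, 33.2 and 28.4 CPM in CKO libraries, against 18.2, 26.1, 22.5 and 24.7 CPM in WT libraries (0.53, SE 0.20, adjusted p = 0.666). Every CKO library was above every WT library. The same order held in ovulated oocytes, with 34.7, 47.4 and 44.3 CPM in CKO, against 25.3, 30.9 and 29.9 CPM in WT (0.55, adjusted p = 0.224). The next 5 genes by p had log2 fold changes of -0.56 (Kdm4a), -0.67 (Kdm8), 0.68 (Kdm3a), -0.35 (Kdm6b) and 0.45 (Kdm5b), each with an adjusted p of 0.763. Without the 3 libraries that stood apart Setdb2 was at 0.50 (adjusted p = 0.254). The median log2 fold change of the tested genes was 0.15 with all libraries, 0.02 without those 3, -0.16 without GV CKO replicate 1 and 0.34 without GV WT replicate 2, so single libraries set its sign and size.

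**Figure D5:**
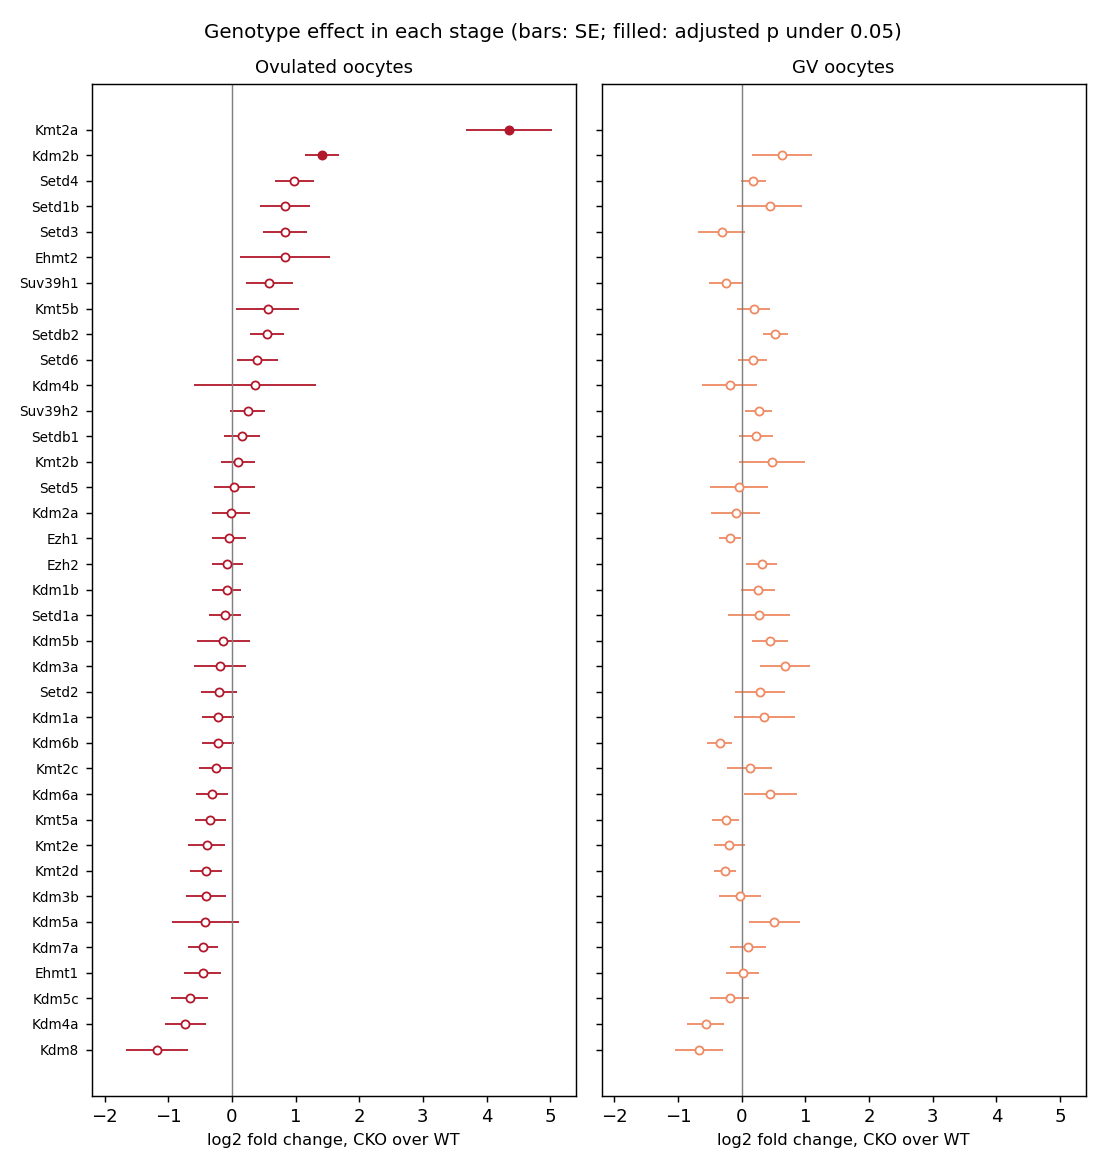
Log2 fold change of CKO over WT with its SE for the genes tested in ovulated oocytes, on the left in those and on the right in GV oocytes, filled where adjusted p was under 0.05. Kmt2a at 4.35 and Kdm2b at 1.42 in ovulated oocytes are the only filled points, and Setdb2 lies right of 0 by about the same distance in both panels.

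A difference of the genotype effect between stages was not shown for any of the 38 genes in the joint fit, by edgeR or DESeq2, where 3.26% of all genes were called by edgeR, 3.17% higher and 0.0833% lower. Without adjustment 1 of 38 had a p under 0.05, as did 15.5% of all genes. That was Setd4 with 0.74 (SE 0.34, adjusted p = 0.304), followed by Setd3 (1.09), Suv39h1 (0.78), Kdm3a (-0.91), Kdm5a (-0.98) and Kdm7a (-0.60), with adjusted p of 0.331 to 0.508. The stage changes that passed in 1 genotype alone are thus not shown to differ between genotypes. Of the partner lists, 1 of 15 COMPASS and MLL complex partners and 1 of 14 methyltransferases with other symbols were called, and the other lists gave 0. The 2 were Men1 (2.45, SE 0.60, adjusted p = 0.0320) and Smyd2, which averaged 0.562 CPM in ovulated CKO and 0.0211 CPM in ovulated WT libraries.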

How the data were processed

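The genes and gene lists were chosen with earlier results of these data known. Per the labels' protocols, cDNA was made with SMART-SeqII and amplified by PCR. The submitters' processing notes name the mm10 build. No source used here names the aligner or the counting program. The authors deposited, per stage, estimated counts per gene (17.6% of GV and 18.3% of ovulated values above 0 were not whole, tolerance 0.001) and FPKM, which the file headers name and which were used for levels between genes.

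Counts were rounded. Genotypes were compared within each stage by edgeR 4.0.16 (R 4.3.3; filterByExpr, TMM, robust quasi-likelihood F test), and all 14 libraries together on genes in both tables for the stage comparisons and the interaction. P-values were adjusted by Benjamini-Hochberg over all genes tested, and adjusted p under 0.05 was called. CPM values are TMM-normalised, on the stage fit's scale for genotype and the joint fit's scale for stage. A difference is log2, CKO over WT or ovulated over GV. Transcript length was inferred from the deposited counts and FPKM. Named were called genes, or the 6 with the smallest p where fewer were called; in stage comparisons the 6 largest rises and falls got full statistics. Library pairs in a group differed by more than counting noise (chi-square per degree of freedom of 20.3 to 336). The fits were tested on simulated counts. Alternatives were DESeq2 1.42.0, other scalings and filters, limma 3.58.1 on log2 FPKM with pseudocounts of 1 and 0.1, a replicate block, a length correction and leaving out libraries. Intervals cover counting error only. Gene positions are those of RefSeq on GRCm38.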

Additional observations from a re-analysis of the deposited data

Results flagged for a closer look

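In groups of 4 GV libraries, the highest library lay far from the other 3 for 7 of 72 combinations of gene and genotype tested. The check covered both ends and would mark about 1 in 20 if values were normally distributed and combinations independent. The combinations share the same libraries, so that rate does not apply directly. In GV CKO replicate 1, Ezh2 was at 292 CPM (next library 163 CPM), Kdm2b at 257 CPM (next 75.2 CPM), Kmt2b at 31.5 CPM (next 8.95 CPM), Setd1b at 5.88 CPM (next 2.00 CPM) and Kdm3b at 3.64 CPM (next 2.41 CPM). In GV WT replicate 2, Kdm5c was at 13.6 CPM (next 6.61 CPM), and in GV WT replicate 1 Kdm4a was at 9.504 CPM (next 6.22 CPM). Of these 7 values, 6 were in GV CKO replicate 1 or GV WT replicate 2, the libraries in which the 41 genes took the largest shares of counts.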

How the results depend on the processing

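No called gene, and none of the 6 leading genes where fewer were called, changed direction under the alternatives run. Medians did: that of the 37 genes in ovulated CKO against WT was -0.08 but 0.07, 0.11 and 0.06 on FPKM, whose fits shifted all genes by 0.17 to 0.18, and that of the 36 genes in GV CKO against WT was 0.15 but -0.16 without GV CKO replicate 1. Ovulated CKO against WT gave 1 gene higher with a mean of at least 5 CPM (Kdm2b), 1 on log2(FPKM + 1), 1 on log2(FPKM + 0.1), 0 on unfiltered FPKM (where Kdm2b had an adjusted p of 0.116) and 1 without ovulated WT replicate 3 and CKO replicate 2 (Kmt2a). In WT, 3 genes were lower in ovulated than GV oocytes with a mean of at least 5 CPM, against 6. Leaving out 1 library gave 2 to 3 genes higher and 0 to 2 lower in ovulated CKO against WT, 23 to 25 higher and 3 to 5 lower by stage in CKO (5 without ovulated CKO replicate 2), 21 to 23 higher and 4 to 6 lower by stage in WT, and 0 in GV CKO against WT and in the interaction. With a replicate block, 3 genes were higher in ovulated CKO oocytes, Setd4 joining with an edgeR adjusted p of 0.0202. Counts by stage were then 24 higher and 4 lower in CKO and 23 and 6 in WT. Correlations between same-numbered CKO and WT libraries were -0.338 to 0.447 in GV and 0.0227 to 0.201 in ovulated oocytes. Those between differently numbered libraries were -0.545 to 0.568 and -0.179 to 0.0839. So few values cannot tell whether same-numbered libraries were paired, and the labels used here give only a number. Length correction shifted the median of all genes by 0.33 in CKO and 0.40 in WT, and ended the calls of Kmt2e in both genotypes, Setd1b in CKO and Ezh1 in WT; RLE scaling shifted it by 0.11 in CKO and ended that of Kmt5b in WT, as did omitting the filter. The cause was not tested. Kmt2a had 0 to 5 counts in each WT library, which limits the precision of its fold change.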
